A study of Mus musculus with 15 samples.

Results

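The genes described here encode integrins, their ligands and counter-receptors, tetraspanins and SLAM family receptors, which together make up much of the adhesive surface of a macrophage. They are 32 genes chosen by symbol with earlier results of these data known, set beside 14192 genes that could be tested on the arrays. Probes were assigned to them through their RefSeq accession, and a gene with several probes is represented by the probe with the highest mean signal. A matched probe was found for 31 of the 32. Itgae, the alpha chain that pairs with Itgb7, had none and was not analysed here. Itga2, a collagen-binding alpha chain, was well above background on only 2 of the 15 arrays and was not tested, which leaves 30 genes.

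The cultures were bone marrow-derived macrophages of C57BL/6 background, grown for a week in the growth factor M-CSF. Wild type cells were compared with cells labelled Junb-fl/fl Lyz2-Cre+/+, in which Junb, which encodes an AP-1 subunit, is deleted by Cre recombinase expressed from both copies of the myeloid gene Lyz2. Cells were left untreated or given lipopolysaccharide (LPS, a Toll-like receptor agonist from Gram-negative cell walls), 100 ng/ml for 4 h, before RNA was isolated. Each of the untreated wild type, LPS-treated wild type and untreated knockout groups had 4 arrays, and the LPS-treated knockout group had 3. The arrays came from replicate wells, so the p-values measure only the spread between wells, which may be technical. Protein was not measured.

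The deleted gene matched its labels. The normalised signal of Junb (spot signal divided by the 75th percentile of its array) was 1.36 to 1.89 on untreated and 8.52 to 13.2 on LPS-treated wild type arrays, and it was not well above background on any knockout array. It was at least 72.1-fold lower in untreated and at least 298-fold lower in LPS-treated knockout cells (exact two-sided permutation p = 0.0286 in both, the smallest these group sizes allow). Knockout cells also lacked most Lyz2 signal (1.43 to 5.35 against 410 to 727). Xist was well above background only on wild type arrays, and the Y-linked genes Ddx3y and Eif2s3y only on knockout arrays. Another Y-linked gene, Kdm5d, was above background on all 7 knockout arrays but also on 5 wild type arrays, with its highest signal on untreated wild type replicate 1 (1.08, against 0.140 or less elsewhere). Each genotype had a slide of its own, so in every comparison of genotypes Junb loss, Cre, Lyz2 loss, sex-linked differences and slide cannot be told apart. Each LPS comparison was made within 1 slide. All 8 measured macrophage markers, among them Lyz2 and the member Itgam, were well above background on all 15 arrays. Their levels varied between arrays, with Csf1r from 3.52 to 561. Around the group means, genes spread more widely on untreated knockout replicate 3, untreated wild type replicate 1 and LPS-treated wild type replicate 4 (SDs of 0.640, 0.540 and 0.526 on the log2 scale) than on the other 12 arrays (0.231 to 0.434).

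Integrins are pairs of an alpha and a beta chain that bind matrix proteins or other cells and switch between low and high affinity through talin and kindlin. Myeloid cells carry the leukocyte beta-2 integrins, in which Itgb2 pairs with Itgal (LFA-1), Itgam (Mac-1) or Itgax, together with fibronectin receptors built on Itgb1 and receptors for vitronectin and osteopontin built on Itgav. Icam1 and Vcam1 are immunoglobulin-type ligands of beta-2 and alpha-4 integrins, best known on endothelium but also made by activated macrophages. Tetraspanins such as Cd9 and Cd53 hold integrins and other receptors in membrane domains. SLAM receptors bind each other or, for Cd48, a partner receptor between leukocytes.

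LPS raised most of these genes in wild type cells, most of all the integrin ligand Vcam1 (233-fold), the SLAM receptor Slamf7 (15.6-fold) and the T cell ligand Alcam (7.63-fold), and lowered the laminin receptor chain Itga6 (2.77-fold), Itgb5 (1.67-fold) and Cd84 (1.59-fold). Of the 30 genes tested, 20 rose and 4 fell at an adjusted p below 0.05 (limma, adjusted over all genes), where 60.0% of all genes passed, 34.8% up and 25.2% down. The fourth of the falls, Itgam, went in opposite directions by probe. Their median change was 0.77 on the log2 scale, against 0.14 over all genes. In knockout cells 17 rose and 4 fell, where 59.0% of all genes passed (31.1% up and 28.0% down), with a median of 0.49 against 0.16. The groups did not overlap for 22 members in wild type cells (52.8% of all genes) and 23 in knockout cells (63.7%). A total of 17 members rose in both genotypes and 3 fell in both (Cd84, Itga6 and Itgb5). Cd151, Cd37, Cd9, Emb and Itga1 passed in neither. The balance of directions depends on the scale: quantile normalisation moved the median of all genes from 0.14 to -0.13 in wild type and from 0.16 to -0.09 in knockout cells, and the members split into 16 up and 11 down in wild type and 13 up and 11 down in knockout cells.

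**Figure D1:**
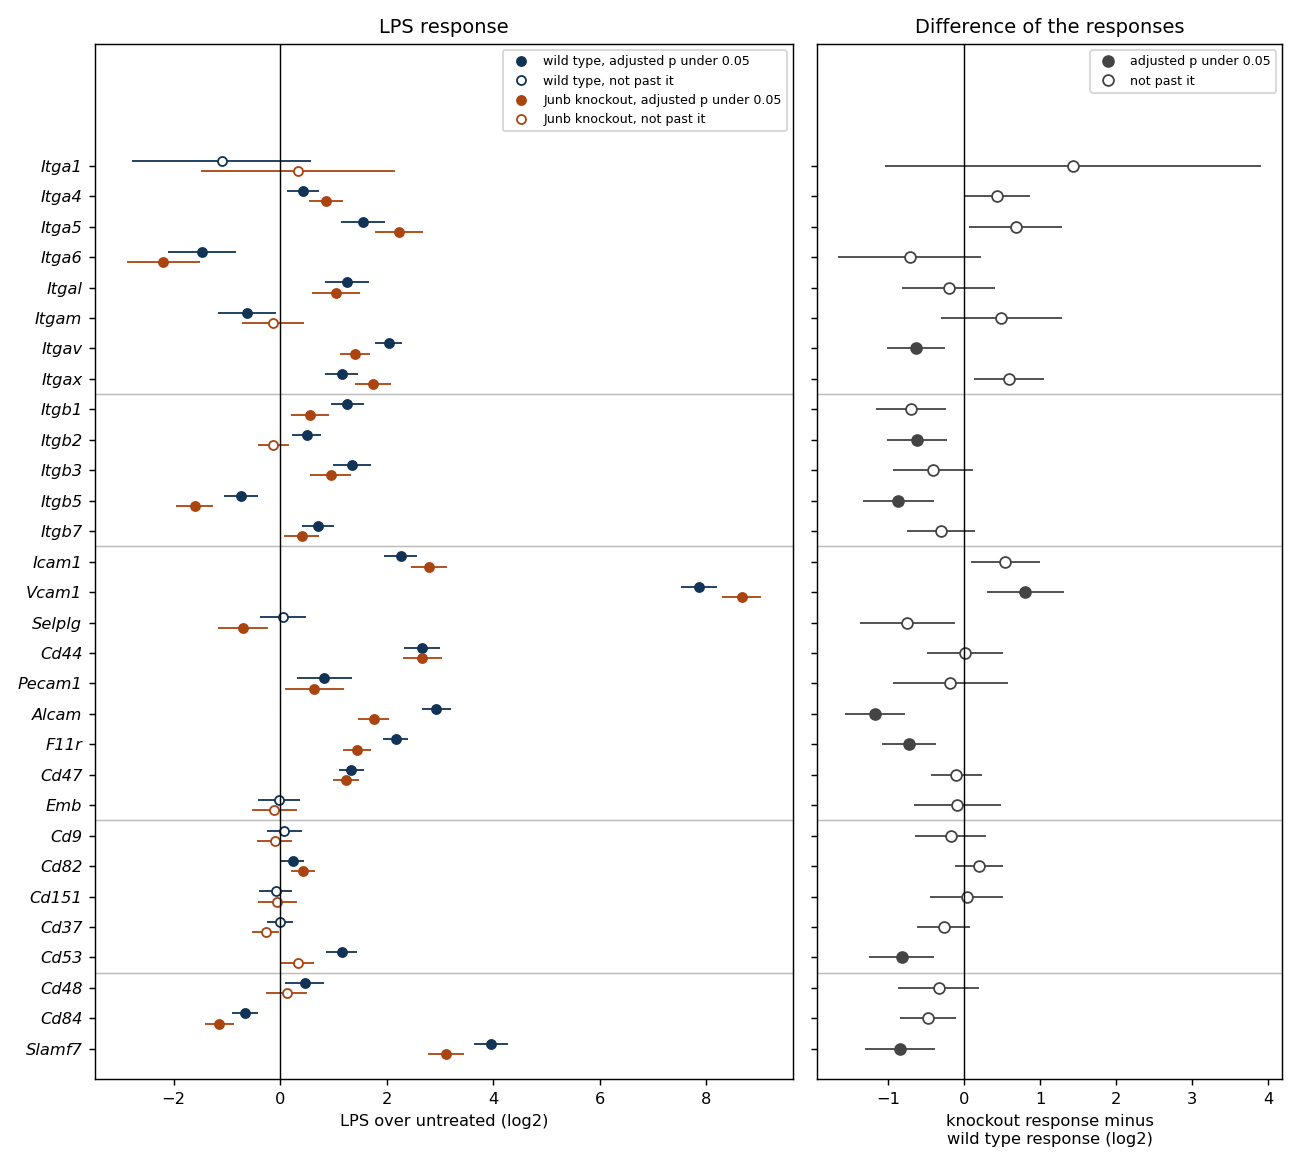
LPS response of the 30 tested genes in wild type and knockout cells (left, log2 of LPS over untreated) and the knockout response minus the wild type response (right), as limma estimates with 95% confidence intervals; grey lines separate alpha chains, beta chains, ligands and counter-receptors, tetraspanins and SLAM receptors. Vcam1 lies apart at 7.87 and 8.67, and 8 genes pass the threshold in the right panel, all but Vcam1 with a lower value in knockout cells.

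Among the alpha chains, 5 of 8 rose and 2 fell in wild type cells (Itga6 and, by 1 of its 3 probes, Itgam), and 5 rose and 1 fell in knockout cells. Itgav, the alpha chain of the vitronectin receptors, had normalised signals of 11.6, 14.5, 13.3 and 12.8 on the untreated and 53.5, 52.3, 53.7 and 53.9 on the LPS-treated wild type arrays. Knockout arrays gave 30.4, 28.3, 29.4 and 21.1 untreated and 71.4, 68.2 and 74.6 with LPS. The 4 groups did not overlap: knockout cells stood above wild type cells in both states, and LPS raised both. In wild type cells Itgav rose by 2.03 ± 0.12 (log2 ± SE, 4 against 4 arrays) and in knockout cells by 1.40 ± 0.13. A second Itgav probe rose by 3.20 and 2.56.

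Itga5, which pairs with Itgb1 as the classical fibronectin receptor, rose by 1.55 ± 0.19 (wild type) and 2.22 ± 0.21 (knockout). Its signals lay between 0.636 and 4.65 over all arrays. Itgax (CD11c) rose by 1.16 ± 0.14 and 1.74 ± 0.15. Its signals lay between 0.287 and 1.25. Of 8 dendritic cell markers, Flt3, Xcr1, Siglech and Kmo were well above background on 15 arrays. Ccr7 was so on 13, Zbtb46 and Cd209a on 7 each, and Clec9a on none. Siglech ranged from 101 to 324, while Xcr1 reached 0.546 at most. The part of these markers in the Itgax values was not tested. Itgal, the alpha chain of LFA-1, rose by 1.26 ± 0.19 and 1.05 ± 0.20, with signals of 5.72 to 18.8. Itga4, the alpha chain of the Vcam1 receptor VLA-4, ranged from 60.5 to 144 and rose by 0.43 ± 0.13 and 0.86 ± 0.14. For Itga4 the wild type rise turned to -0.30 under quantile normalisation, and its second probe passed in neither genotype (0.31 and 0.46).

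Itga6, the alpha chain of laminin receptors, had the largest fall of the members tested. Its signals were 10.7, 11.5, 16.7 and 24.3 on untreated and 5.95, 4.65, 7.02 and 4.36 on LPS-treated wild type arrays. In knockout cells they went from 24.3, 22.1, 34.2 and 15.5 to 6.78, 4.46 and 4.28. Untreated and treated arrays did not overlap in either genotype, while the untreated groups of the 2 genotypes did. Itga6 fell by 1.47 (SE 0.29) in wild type and by 2.19 (SE 0.31) in knockout cells. The difference between these falls of -0.72 ± 0.43 did not pass (adjusted p = 0.32).

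Itgam, the alpha chain of Mac-1 and a macrophage marker, gave different answers by probe. The representative probe read 59.9, 29.2, 33.0 and 34.1 untreated and 19.3, 19.4, 23.3 and 40.7 with LPS in wild type cells. On the knockout arrays it was 31.7, 34.5, 38.6 and 38.0 untreated and 28.7, 34.9 and 34.3 with LPS. The wild type groups overlapped, and the extreme values are those of 2 of the 3 arrays of wide spread. This probe fell in wild type cells (-0.62 ± 0.25, adjusted p = 0.044), a call lost when any one of 11 arrays was left out, and gave -0.13 ± 0.27 in knockout cells. The other 2 kept probes rose in wild type cells, by 1.14 and 0.56, and the mean over all probes was 0.36, so no direction is given for Itgam.

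Itga1, a collagen-binding alpha chain, was dim, between 0.0442 (the floor set for signals near background) and 0.237 on 14 arrays, with 1.56 on untreated wild type replicate 1. This probe passed in no comparison, with -1.10 ± 0.76 (wild type) and 0.33 ± 0.83 (knockout) after LPS. A second Itga1 probe, at the floor in untreated cells, rose in both genotypes.

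Of the 5 beta chains, 4 rose and 1 fell in wild type cells, and 3 rose and 1 fell in knockout cells. Itgb1, the partner of Itga4, Itga5 and Itga6, read 17.1, 15.2, 14.8 and 14.7 untreated and 35.4, 42.8, 35.6 and 34.8 with LPS in wild type cells. The knockout values were 15.1, 16.3 and 13.0 untreated, with replicate 3 missing after its spot was excluded, and 23.2, 17.1 and 26.0 with LPS. Treated knockout arrays were above untreated ones but below every treated wild type array. LPS raised Itgb1 by 1.26 ± 0.14 (wild type) and 0.56 ± 0.16 (knockout). The difference of the responses was -0.70 ± 0.21 and missed the threshold (adjusted p = 0.053), while the second probe passed it at -0.96 (adjusted p = 0.039).

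Itgb2, the common chain of the leukocyte integrins, read 37.1, 35.2, 34.5 and 34.0 untreated and 47.3, 60.1, 44.5 and 47.8 with LPS in wild type cells. Signals in knockout cells were 32.6, 34.5, 31.7 and 34.5 untreated and 31.4, 25.1 and 35.8 with LPS. The treated wild type arrays stood above all others, and the treated knockout arrays overlapped the untreated ones. Itgb2 rose by 0.49 ± 0.12 in wild type cells, and its value in knockout cells was -0.13 ± 0.13. The wild type rise became -0.27 under quantile normalisation, where it did not pass. Neutrophils also carry Itgb2 and Itgam. The summed signal of 8 neutrophil markers was 6.99 to 12.0 in untreated and 49.0 to 65.4 in treated wild type cells. In knockout cells it was 6.20 to 6.86 and 18.5 to 21.1. Elane, Camp and S100a8 were well above background on 15 arrays and Ltf on 14, and S100a8 alone ranged from 4.98 to 56.7. S100a9 was so on all 8 wild type arrays and on no knockout array, Ngp on 1 array, and Mpo and Cxcr2 on none. The part of these markers in the Itgb2 and Itgam values was not tested.

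Itgb3, which pairs with Itgav in the osteoclast-type vitronectin receptor, was well above background on all arrays. It read 0.136, 0.125, 0.128 and 0.131 in untreated and 0.347, 0.266, 0.300 and 0.443 in LPS-treated wild type cells. Knockout arrays gave 0.304, 0.380, 0.501 and 0.377 untreated and 0.732, 0.736 and 0.754 with LPS. Untreated knockout cells thus overlapped LPS-treated wild type cells, and treated knockout cells were above all other arrays. The rise was 1.36 ± 0.16 in wild type and 0.95 ± 0.17 in knockout cells. Platelets also carry Itgb3. Of 6 platelet markers, Pf4 and Ppbp were well above background on 15 arrays and Treml1 on 14. Itga2b and Gp9 were so on 1 array each and Gp1ba on none. The summed signal of the 6 was 61.0 to 108 untreated and 137 to 179 with LPS in wild type cells. In knockout cells it was 72.5 to 90.5 and 121 to 144. Most of it came from Pf4, which ranged from 59.4 to 179. The part of these markers in the Itgb3 values was not tested.

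Itgb5, the other main partner of Itgav, moved the opposite way. It read 46.5, 44.4, 44.1 and 50.9 untreated and 31.0, 32.2, 27.4 and 22.0 with LPS in wild type cells. On the knockout arrays it was 73.3, 71.3, 79.7 and 58.7 untreated and 28.1, 20.5 and 21.4 with LPS. Untreated knockout arrays were above untreated wild type arrays, and the treated groups overlapped. Itgb5 fell by 0.74 (SE 0.15) in wild type and by 1.61 (SE 0.16) in knockout cells.

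Itgb7, the beta chain of the gut-homing integrins, read 2.88, 3.26, 3.42 and 4.57 untreated and 6.20, 6.13, 5.54 and 4.96 with LPS in wild type cells. The knockout values were 1.41, 1.42, 1.55 and 1.28 untreated and 2.09, 1.703 and 1.82 with LPS. All 7 knockout arrays were below all 8 wild type arrays. Itgb7 rose by 0.71 ± 0.14 (wild type) and 0.40 ± 0.15 (knockout), the latter lost when any one of 5 arrays was left out. Lymphocytes also carry Itgb7. Of 6 T and NK cell markers, Cd3d, Cd3g and Ncr1 were at the floor on every array, while Cd3e was well above background on 15 arrays, Klrb1c on 14 and Lck on 13. Their summed signal was 0.312 to 0.400 and 1.72 to 2.53 in untreated and treated wild type cells and 0.384 to 0.490 and 2.06 to 2.84 in knockout cells. Of 6 B cell markers, Cd79a and Cd79b were above background on 15 arrays and Pax5 on none, and the summed signal ran from 0.250 to 0.834. The part of these markers in the Itgb7 values was not tested.

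**Figure D2:**
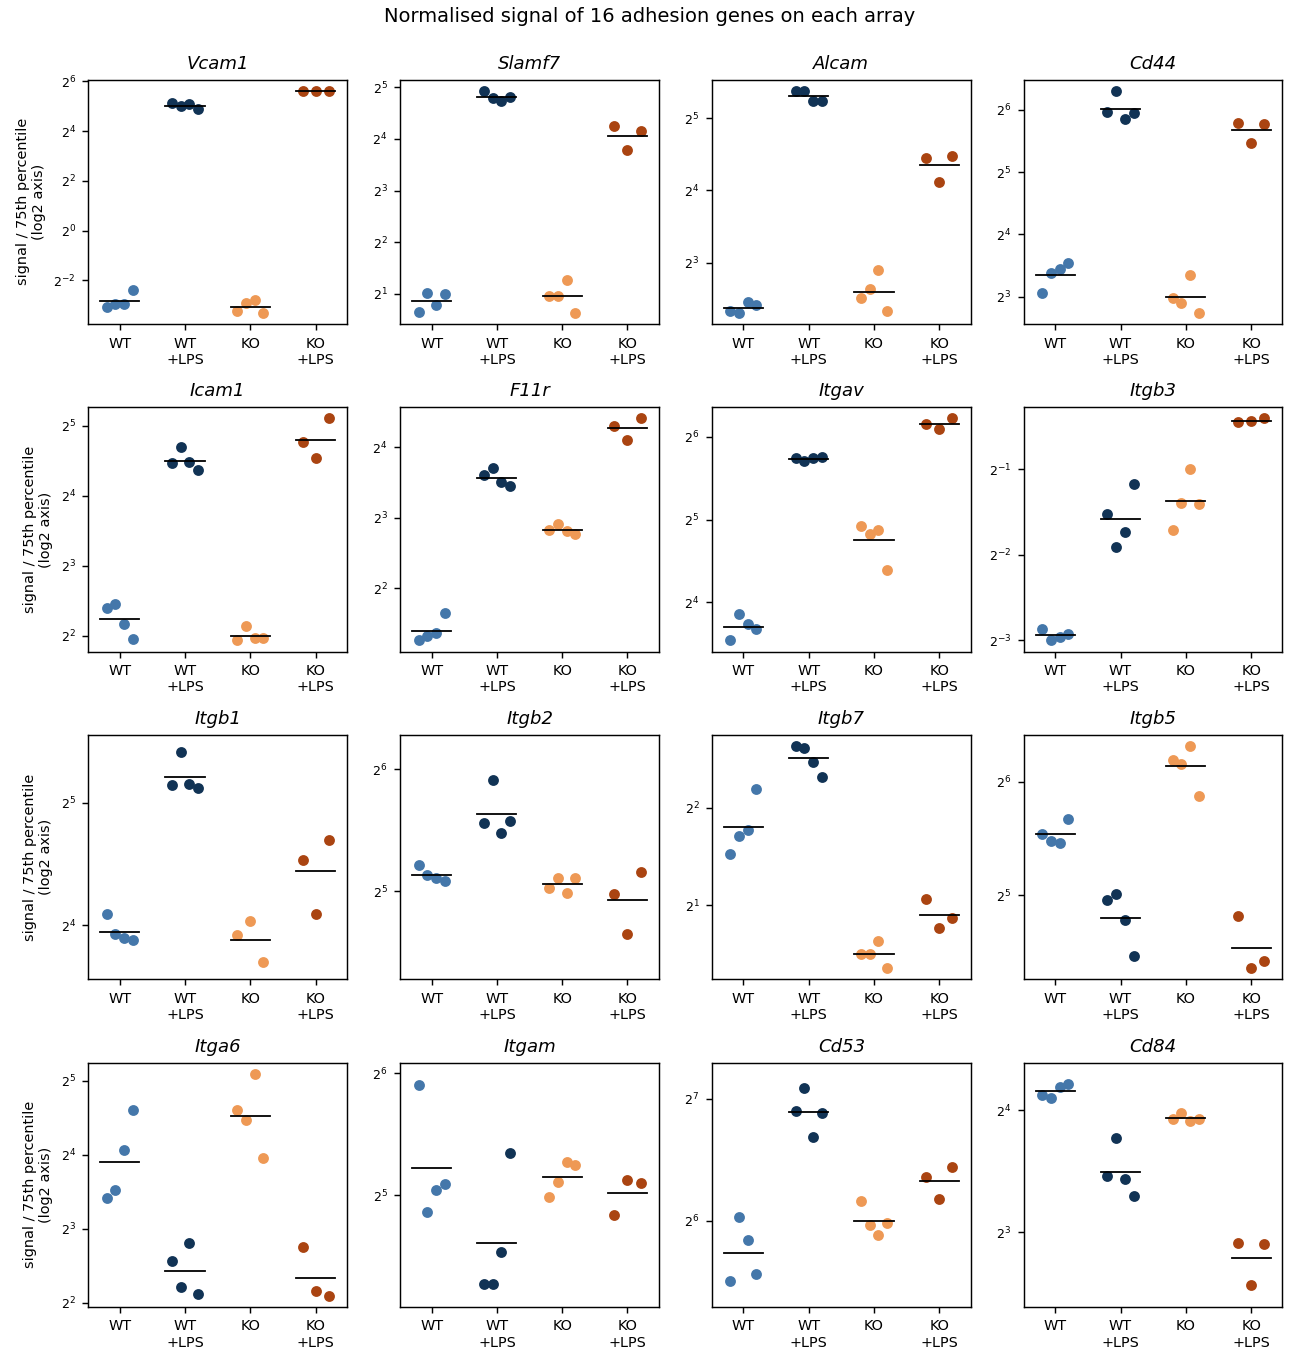
Normalised signal (spot signal over the array's 75th percentile, log2 axis with its own range in each panel) of 16 genes on each array, for wild type (WT) and Junb knockout (KO) cells without and with LPS; points are arrays and bars are group means of the log2 values. All 7 knockout arrays are below all wild type arrays for Itgb7, and the treated wild type mean of Vcam1 lies 233-fold above the untreated one.

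Among the 9 ligands and counter-receptors, 7 rose and none fell in wild type cells, with a median of 2.17, and 7 rose and 1 fell in knockout cells. Vcam1, the ligand of VLA-4, read 0.119, 0.128, 0.130 and 0.193 untreated and 35.3, 31.9, 34.0 and 29.5 with LPS in wild type cells. Signals in knockout cells were 0.107, 0.132, 0.147 and 0.101 untreated and 49.2, 48.6 and 48.9 with LPS. The untreated groups overlapped, and each treated knockout array was above each treated wild type array. The rise was 7.87 ± 0.16 on the log2 scale (233-fold) in wild type and 8.67 ± 0.17 (406-fold) in knockout cells. A second Vcam1 probe, at the floor in untreated cells, rose in both genotypes. Vcam1 is also made by stromal and endothelial cells. The summed signal of 7 stromal markers was 1.66 to 2.78 in untreated and 6.14 to 9.62 in treated wild type cells. In knockout cells it was 2.49 to 2.90 and 16.6 to 18.0. Pdgfrb, which alone reached 14.9, and Col1a1 (1.07 to 3.98) were well above background on 15 arrays. Col1a2 and Dcn were so on 14 arrays each, Cxcl12 on 12, Lum on 4 (all LPS-treated wild type) and Pdgfra on only 1. Of 6 endothelial markers, Cdh5, Kdr and Vwf were well above background on 15 arrays, with Vwf at 0.690 to 3.55 and Kdr up to 2.05. Tek, Emcn and Esam were at the floor on every array. The summed signal was 2.57 to 3.93 and 3.70 to 4.43 in wild type and 1.58 to 1.94 and 2.41 to 3.28 in knockout cells. The part of these markers in the Vcam1 result was not tested.

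Icam1, the ligand of LFA-1 and Mac-1, read 5.26, 5.46, 4.51 and 3.88 untreated and 22.1, 25.9, 22.3 and 20.8 with LPS in wild type cells. Knockout arrays gave 3.82, 4.40, 3.91 and 3.91 untreated and 27.1, 23.2 and 34.4 with LPS. Treated arrays were far above untreated ones in both genotypes, and the genotypes overlapped in both states. The rise was 2.26 ± 0.14 in wild type and 2.80 ± 0.15 in knockout cells.

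Cd44, the hyaluronan receptor, read 8.33, 10.4, 10.8 and 11.6 untreated and 62.5, 78.8, 57.8 and 61.5 with LPS in wild type cells. On the knockout arrays it was 7.92, 7.51, 10.2 and 6.70 untreated and 55.0, 44.3 and 54.3 with LPS. The genotypes overlapped untreated and not with LPS, where the test did not pass (-0.34 ± 0.17, adjusted p = 0.14). Cd44 rose by 2.66 ± 0.15 and 2.67 ± 0.17, and the difference of 0.01 had a 95% interval of -0.49 to 0.51. The 3 other Cd44 probes rose as well, by 2.61 to 3.63 over both genotypes.

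Alcam (CD166), the ligand of CD6 on T cells, read 5.02, 4.94, 5.50 and 5.33 untreated and 41.6, 41.4, 37.9 and 37.7 with LPS in wild type cells. The knockout values were 5.71, 6.18, 7.42 and 5.04 untreated and 21.7, 17.4 and 22.2 with LPS. The untreated groups overlapped, and every treated knockout array was far below every treated wild type array. Alcam rose 7.63-fold in wild type cells (2.93 ± 0.12) and 3.37-fold in knockout cells (1.75 ± 0.13).

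F11r (JAM-A), a tight junction protein and ligand of LFA-1, read 2.39, 2.49, 2.57 and 3.14 untreated and 12.2, 13.1, 11.3 and 10.9 with LPS in wild type cells. Signals in knockout cells were 7.08, 7.52, 7.02 and 6.84 untreated and 19.6, 17.2 and 21.2 with LPS. No groups overlapped: knockout cells were above wild type cells in both states. F11r rose by 2.17 ± 0.11 in wild type and by 1.44 ± 0.12 in knockout cells, from the higher start.

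Cd47, the ligand of the inhibitory receptor SIRP-alpha, ranged from 45.9 to 173 and rose by 1.34 ± 0.10 and 1.23 ± 0.11. Pecam1 (CD31), a homophilic junction molecule, ranged from 0.0792 to 0.222 and rose by 0.83 ± 0.23 and 0.64 ± 0.25, the latter lost when any one of 7 arrays was left out. Selplg (PSGL-1), the ligand of P-selectin, ranged from 2.68 to 6.56. Selplg gave 0.05 ± 0.19 in wild type cells and fell by 0.70 (SE 0.21) in knockout cells, a call lost without LPS-treated knockout replicate 3. Emb (embigin), a chaperone of monocarboxylate transporters with a role in adhesion, ranged from 17.9 to 35.5 and passed in neither genotype (-0.02 ± 0.18 and -0.11 ± 0.19).

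Of the 5 tetraspanins, 2 rose in wild type and 1 in knockout cells, and none fell. Cd53, a leukocyte tetraspanin, read 45.5, 65.4, 57.4 and 47.3 untreated and 119, 136, 103 and 118 with LPS in wild type cells. Knockout arrays gave 71.7, 62.7, 59.2 and 63.1 untreated and 82.4, 72.5 and 86.9 with LPS. Treated knockout arrays were above untreated ones by a small margin and below every treated wild type array. Cd53 rose by 1.16 ± 0.13 in wild type cells, and its value in knockout cells was 0.33 ± 0.14, which did not pass (adjusted p = 0.062).

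Cd82, a tetraspanin first described as a metastasis suppressor, ranged from 32.9 to 60.6 and rose by 0.24 ± 0.10 and 0.43 ± 0.10. Both rises reversed under quantile normalisation, to -0.54 and -0.21, and the wild type call was lost when any one of 13 arrays was left out. Cd9 (92.1 to 142, with LPS-treated wild type replicate 4 missing), Cd151 (11.3 to 20.3, with untreated knockout replicate 3 missing) and Cd37 (31.7 to 55.2) passed in neither genotype. Cd9, the partner of Itgb1 in many cells, gave 0.07 ± 0.15 and -0.10 ± 0.15. By its representative probe Cd37 was 1.21-fold lower with LPS in knockout cells, where the groups did not overlap. That fall passed under 13 of 27 alternatives, quantile normalisation and both forms of the deposited value table among them. A second Cd37 probe fell in knockout cells (-0.63, adjusted p = 0.017).

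Of the 3 SLAM receptors, Slamf7 (CRACC), a homophilic receptor that takes part in macrophage phagocytosis, had the second largest rise of all members. It read 1.57, 2.01, 1.72 and 1.98 untreated and 30.5, 27.7, 26.7 and 28.0 with LPS in wild type cells. On the knockout arrays it was 1.93, 1.95, 2.39 and 1.55 untreated and 18.9, 13.9 and 17.9 with LPS. The untreated groups overlapped and the treated ones did not. The rise was 15.6-fold (3.96 ± 0.14) in wild type and 8.66-fold (3.11 ± 0.15) in knockout cells.

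Cd84, a homophilic SLAM receptor, fell with LPS. It read 17.4, 17.2, 18.2 and 18.5 untreated and 11.01, 13.6, 10.8 and 9.82 with LPS in wild type cells. The knockout values were 15.2, 15.7, 15.03 and 15.2 untreated and 7.51, 5.92 and 7.47 with LPS. No groups overlapped, and knockout arrays were below wild type arrays in both states, though the untreated difference did not pass (-0.22 ± 0.11). The fall was -0.66 ± 0.11 in wild type and -1.14 ± 0.12 in knockout cells. Cd48, the ligand of CD2 and CD244, ranged from 52.9 to 124. It rose by 0.46 ± 0.16 in wild type cells and gave 0.12 ± 0.18 in knockout cells, with -0.27 in wild type cells under quantile normalisation. The wild type call for Cd48 was lost without replicate 1 of either wild type group.

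The LPS response itself was then compared between genotypes. It differed for 8 of the 30 members, where 10.4% of all genes passed. Of these, 7 had a lower value in knockout cells (7.87% of all genes) and 1, Vcam1, a higher one (2.50%). The median difference over the members was -0.24, against -0.10 over all genes. Alcam differed most, at -1.18 ± 0.18 (adjusted p = 0.00099), then Itgb5 (-0.87 ± 0.21), Slamf7 (-0.85 ± 0.21), Cd53 (-0.83 ± 0.19), F11r (-0.73 ± 0.16), Itgav (-0.63 ± 0.17) and Itgb2 (-0.62 ± 0.18). The other adjusted p-values ran from 0.011 for F11r to 0.041 for Vcam1 (0.80 ± 0.23).

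These 7 lower values stand for different shapes. Alcam, Slamf7, Cd53 and Itgb2 passed no test of genotype in untreated cells and were lower in knockout cells after LPS. F11r and Itgav began higher in knockout cells and stayed higher with LPS, with a smaller rise between. Itgb5 began higher in knockout cells and fell further.

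The difference was past the threshold for Alcam and F11r under every alternative run that held them. It was lost for Itgb5, Cd53 and Slamf7 without LPS-treated knockout replicate 3. For Itgb5 it was also lost in both forms of the deposited value table. For Slamf7 it was also lost with a replicate block (adjusted p = 0.052) and in the value table without its repeated value, and it reversed in the full value table (0.92). It was lost under 16 alternatives for Itgav, 14 for Itgb2 and 17 for Vcam1. Leaving out LPS-treated knockout replicate 3 left 3 members past the threshold. Leaving out any one of untreated knockout replicates 1 and 2, LPS-treated knockout replicate 2, untreated wild type replicate 3 or LPS-treated wild type replicates 1 and 2 left 5, as did quantile normalisation. Without the 3 arrays of wide spread, 9 passed.

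In untreated cells 9 of the 30 members differed between genotypes, 4 higher and 5 lower in knockout cells, where 18.4% of all genes passed (13.7% higher and 4.66% lower). The median over the members was -0.03, against 0.10 over all genes. The groups did not overlap for 10 members (21.3% of all genes). The 4 higher genes were Itgb3 at 1.56 ± 0.16 (2.96-fold), F11r at 1.43 ± 0.11 (2.70-fold), Itgav at 1.05 ± 0.12 (2.08-fold) and Itgb5 at 0.60 ± 0.15 (1.52-fold). Itgav, Itgb3 and Itgb5 are chains of the vitronectin receptors. The 5 lower genes were Itgb7 at -1.30 ± 0.14, Itgax at -0.71 ± 0.14, Itga5 at -0.63 ± 0.19, Cd47 at -0.38 ± 0.10 and Cd82 at -0.36 ± 0.10. The other 2 Cd82 probes were lower as well, by -0.67 and -0.60. Leaving out single arrays ended the call for Itga5 (any one of 5 arrays), Cd47 (untreated knockout replicates 1 and 2, wild type replicate 2) and Cd82 (knockout replicate 2, wild type replicates 2 and 3).

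With LPS 14 members differed, 5 higher and 9 lower in knockout cells, where 29.8% of all genes passed (13.6% higher and 16.2% lower). The median was -0.18, against 0.03 over all genes, and the groups did not overlap for 17 members (41.7% of all genes). Itgb3 (1.15 ± 0.17), F11r (0.70 ± 0.12) and Itgav (0.42 ± 0.13) were higher as in untreated cells, together with Vcam1 (0.58 ± 0.17) and Itga4 (0.44 ± 0.14). The second probe of Vcam1 gave 0.22 (adjusted p = 0.22) and that of Cd84, a gene lower by the probe that stands for it, 0.14 (adjusted p = 0.89). The largest lower values were those of Itgb7 (-1.61 ± 0.15), Alcam (-0.96 ± 0.13), Itgb1 (-0.77 ± 0.15), Slamf7 (-0.75 ± 0.15), Itgb2 (-0.70 ± 0.13) and Cd84 (-0.70 ± 0.12). Cd53 (-0.56 ± 0.14), Cd47 (-0.48 ± 0.11) and Cd37 (-0.45 ± 0.12) were lower by less. Itgb5, which was higher in untreated knockout cells, gave -0.27 ± 0.16 with LPS. The difference was lost for Vcam1 without LPS-treated knockout replicate 2 or 3, for Cd53 without replicate 3, for Itgav without knockout replicate 2 or 4 or wild type replicate 2, and for Itga4 without any one of 5 arrays. With the replicate number as a block, Vcam1 (0.55, adjusted p = 0.053) and Itga4 (0.43, adjusted p = 0.067) did not pass, and Selplg passed at -0.50 (adjusted p = 0.022).

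**Figure D3:**
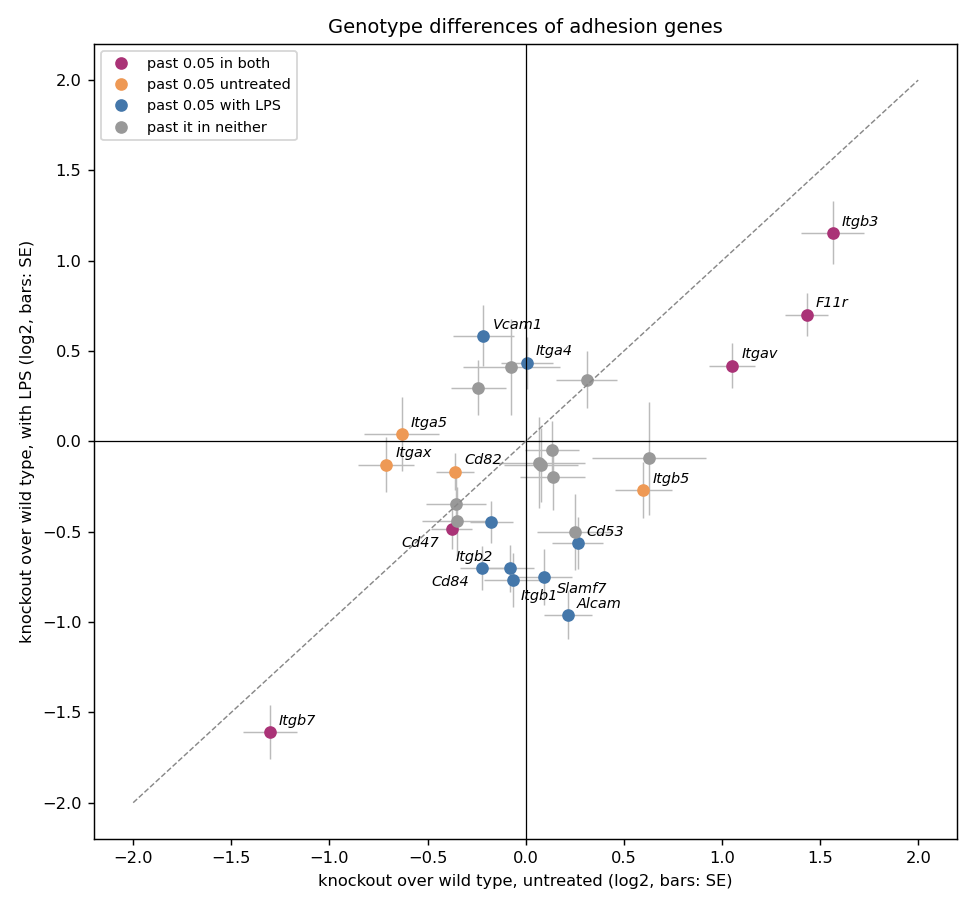
Knockout over wild type in untreated cells (horizontal) and with LPS (vertical), log2 ± SE, for 29 genes (Itga1, whose error is far larger, is left out); the dashed line marks equal differences and colours show where the adjusted p was below 0.05. Itgb3, F11r and Itgav are higher in both states and Itgb7 is lower in both, while Alcam, Slamf7, Itgb1 and Itgb2 are lower with LPS.

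Genes that work beside these molecules were taken as 5 further lists. Of 7 other integrin chains tested, 2 rose and 1 fell in wild type cells and 2 rose and 2 fell in knockout cells. Itgb8, the chain that with Itgav activates latent TGF-beta, was not well above background in untreated cells and rose at least 14.8-fold in wild type and at least 11.6-fold in knockout cells. Itga9 rose in wild type cells by 0.53 ± 0.18. Itga8 fell by 0.94 (SE 0.15) in wild type cells and at least 2.33-fold in knockout cells. Itga7, a laminin receptor chain, rose by 1.00 ± 0.14 in knockout cells and was not well above background on any LPS-treated wild type array.

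Of 35 genes of integrin activation and the adhesion complex, 17 rose and 4 fell in wild type cells (median 0.34), and 14 rose and 8 fell in knockout cells (median 0.37). Zyx (zyxin, a focal adhesion protein) rose by 3.02 ± 0.15 and 2.09 ± 0.16, a difference of -0.94 ± 0.22 that passed. Lyn, a Src family kinase, rose by 2.54 ± 0.13 and 2.02 ± 0.14. Rasgrp3, an exchange factor for Rap1 and Ras, fell by 4.92 and 5.57 on the log2 scale, and Rassf5 (RAPL), a Rap1 effector that binds LFA-1, fell by 2.61 and 2.88.

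Of 17 matrix ligands of integrins and Cd44, 9 rose and none fell in wild type cells (median 0.76), and 9 rose and 2 fell in knockout cells (median 0.82). Has1, which makes the Cd44 ligand hyaluronan, was not well above background in untreated cells and rose at least 231-fold in wild type and at least 75.3-fold in knockout cells. Thbs1 (thrombospondin 1), a ligand of Cd47, rose by 4.02 ± 0.22 (wild type) and 1.22 ± 0.23 (knockout), a difference of -2.80 ± 0.32 that passed. Tnc (tenascin C), a ligand of alpha-9 integrin, rose at least 24.6-fold and at least 7.57-fold. Col4a1 rose by 2.18 ± 0.13 and 2.60 ± 0.14. Of the stromal markers given beside Vcam1, 4 of the 6 tested rose in wild type and 2 in knockout cells, and their part in the values of these ligands was not tested.

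Of 30 other immunoglobulin-type, selectin and SLAM molecules, 13 rose and 4 fell in wild type cells (median 0.39), and 12 rose and 6 fell in knockout cells (median 0.39). Slamf1, a self-ligand that also binds bacteria, rose at least 91.1-fold in wild type cells and by 4.80 ± 0.22 on the log2 scale in knockout cells. Slamf9 rose by 2.88 ± 0.15 and 1.41 ± 0.16, a difference of -1.47 ± 0.22 that passed. Mcam (CD146) rose by 3.78 ± 0.60 and 2.81 ± 0.65. Sele (E-selectin) rose at least 10.9-fold and at least 3.94-fold.

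Of 17 other tetraspanins, 4 rose and 3 fell in wild type cells (median 0.18), and 4 rose and 6 fell in knockout cells (median -0.13). Tspan33 rose by 1.18 ± 0.14 and 2.78 ± 0.15, and the difference of 1.60 ± 0.21 passed. Tspan14, a partner of the protease ADAM10, fell by 1.81 and 2.07, and Rom1 fell by 1.19 and 1.33. Tspan32 gave 0.19 ± 0.13 in wild type cells and fell by 2.27 (SE 0.15) in knockout cells, where its untreated level was 6.18 ± 0.14 higher on the log2 scale than in wild type cells.

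**Figure D4:**
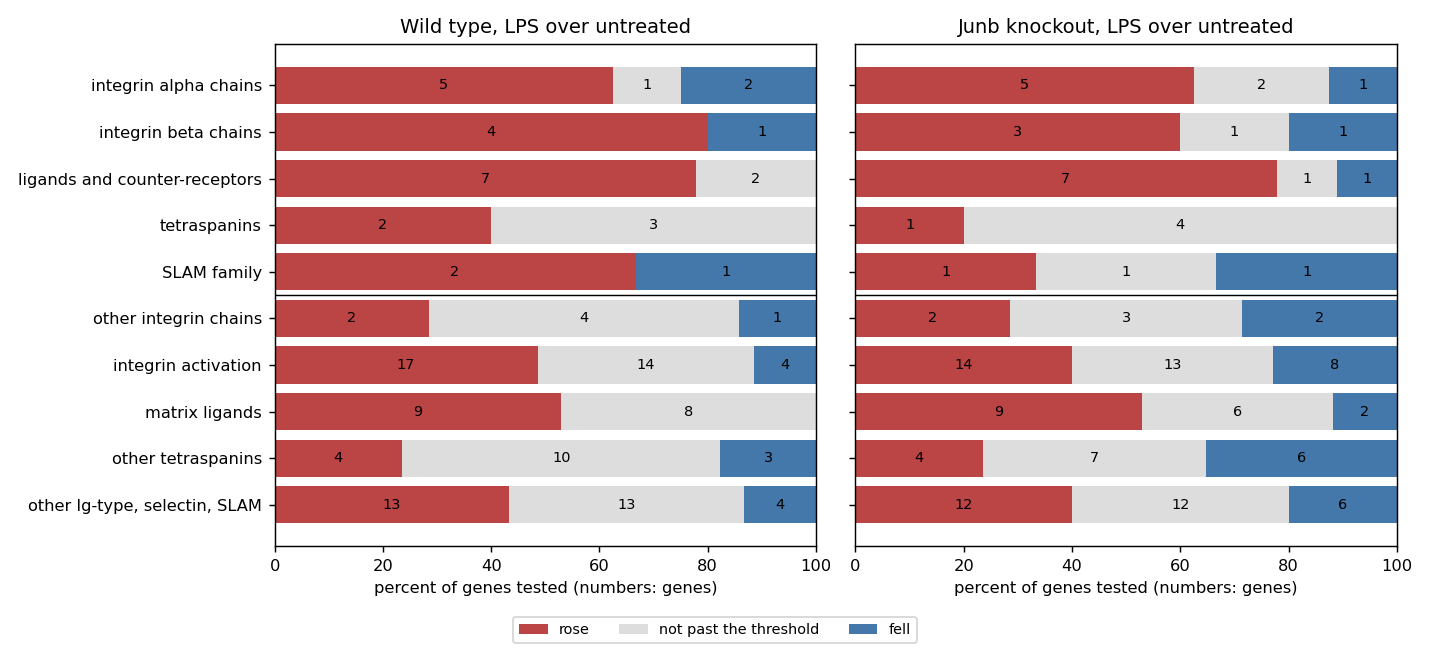
Share of the tested genes of each list that rose, fell or did not pass the threshold with LPS in wild type (left) and knockout (right) cells; numbers are genes, the 5 member groups stand above the black line and the 5 lists of related genes below it. In wild type cells 7 of 9 ligands and counter-receptors rose and none fell, against 2 of 5 tetraspanins.

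Because Junb is a subunit of AP-1, the bases before the transcription start of each member were searched for the AP-1 motif TGANTCA on both strands, in the promoter sequences of RefSeq (build GRCm38.p6). Of the 32 members, 24 have an entry, 29 sequences in all, and 4 genes with 1 sequence each hold the motif within 250 bases before the start (13.8% of the sequences), against 6.75% of 32851 promoters. Of the 8 genes whose LPS response differed, 6 have an entry: F11r and Slamf7 hold these letters, and Alcam, Itgav, Itgb5 and Cd53 do not. The 4 windows of 100 bases are shown 5′ to 3′ along the gene's strand with the motif in capitals, since they include F11r and Slamf7, whose LPS response differed between genotypes, beside Itgax and Cd84, whose response did not pass that test.
F11r, chr1:171437405-171437504, plus strand: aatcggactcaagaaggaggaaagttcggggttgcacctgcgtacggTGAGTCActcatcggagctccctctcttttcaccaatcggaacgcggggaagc
Slamf7, chr1:171649000-171649099, minus strand: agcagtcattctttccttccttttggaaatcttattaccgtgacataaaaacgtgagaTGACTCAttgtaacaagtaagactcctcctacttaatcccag
Itgax, chr7:128129447-128129546, plus strand: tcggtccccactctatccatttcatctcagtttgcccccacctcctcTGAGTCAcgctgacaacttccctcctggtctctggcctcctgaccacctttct
Cd84, chr1:171839447-171839546, plus strand: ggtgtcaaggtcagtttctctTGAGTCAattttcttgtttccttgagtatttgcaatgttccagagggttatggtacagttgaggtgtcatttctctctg
Counted from the start, the motif begins at -42 in Slamf7, -56 in Itgax, -109 in F11r and -229 in Cd84. The CRE motif TGACGTCA was in none of the 24 (1.55% of all promoters), nor was the NF-kB consensus (3.90%). Only full matches to that consensus were counted, so an NF-kB site that departs from it would be missed. Vcam1, the member with the largest LPS rise, has no entry and was not searched. The lack of a match therefore does not show that promoters of members raised by LPS are without NF-kB sites. A match describes these letters only, and binding was not measured.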

How the data were processed

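RNA of 15 cultures was amplified, labelled with Cy3 and hybridised to Agilent mouse arrays, per the labels' protocols. Images were quantified in Agilent Feature Extraction (10.7.3.1 per the file headers). The deposited processed signal is a background-subtracted intensity with no scaling between arrays, per the file headers. The deposited value table holds log2 values whose normalisation is not given in the sources used here; its columns have medians of 6.25 to 6.27, which leaves the centring and background step unknown, so it served as an alternative.

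The software's non-uniformity and population outlier flags removed 4827 spots, 2115 of them on untreated knockout replicate 3, an array of wide spread. Signals were divided by the array's 75th percentile (476 to 1481), raised to a floor of 0.0442 of it (-4.50 on the log2 scale) and taken to log2. Dividing by a percentile assumes that it is comparable between conditions. Of 55681 probes, 26582 matched exactly 1 symbol in RefSeq (GRCm38.p6). Probes well above background on 3 or more arrays of 1 group were kept, and 14192 genes were tested. No spot was saturated. A fold written "at least" compares the bright group's mean with the limit of detection in a group where no array was well above background.

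limma 3.58.1 (R 4.3.3, with data.table) fitted 4 group means over all arrays, with Benjamini-Hochberg adjustment over all genes at 0.05; other probes of a gene were adjusted over all kept probes. The fit was tested on simulated data with known changes of the wild type LPS response only. The genotype comparisons and the response difference were not scored there. Groups come from the sample titles. The number of arrays limits the precision. Same-numbered wells deviated together between the genotypes with LPS (correlations 0.446, 0.241 and 0.137 over 3 pairs, a hint from the data and not from the labels), so results with the replicate block, fitted over all arrays, stand beside that comparison where they change a call. In the other comparisons these correlations were of mixed sign (LPS response in each genotype) or negative (genotypes untreated). So few pairs cannot decide whether the numbers pair the samples. Values were given by array for members past the test of the response difference, the 6 largest rises and falls with LPS in wild type cells (only 4 fell) and the 4 largest genotype differences in each state. Up to 4 genes of each related list are named, those past the threshold with the largest change.

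The members and lists were chosen with earlier results of these data known. Alternatives were quantile normalisation, normexp background correction on the median spot and median background intensity as deposited by the authors (the plan named the mean signal), the value table, other filters, floors and probe rules, a replicate block, array weights and leaving out arrays. The value table without its repeated value was added after seeing the data.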

Additional observations from a re-analysis of the deposited data

Results flagged for a closer look

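The LPS response differed between the genotypes for 8 members by the interaction term of the limma fit (knockout response minus wild type response, log2). The value was -1.18 for Alcam, -0.87 for Itgb5, -0.85 for Slamf7, -0.83 for Cd53, -0.73 for F11r, -0.63 for Itgav, -0.62 for Itgb2 and 0.80 for Vcam1.

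A single array stood apart from the others of its group in 4 of the 87 groups of 4 arrays examined by Dixon's criterion, which chance alone gives in about 1 of 20. Cd48 was 52.9 on untreated wild type replicate 1, where the next value was 84.1. Cd151 was 11.3 on LPS-treated wild type replicate 4, where the next was 14.9. Both of these arrays are among the 3 of wide spread. Itgb1 was 42.8 on LPS-treated wild type replicate 2, where the next was 35.6, and Icam1 was 4.40 on untreated knockout replicate 2, where the next was 3.91.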

How the results depend on the processing

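Of the 76 calls made for members over the 5 comparisons, 43 stayed past the threshold in the same direction under all alternatives that held the gene, and 10 reversed under at least 1. The number of members whose LPS response differed (8) was 5 under quantile normalisation, 4 in the deposited value table with or without its repeated value, 5 with a replicate block and 16 with array weights. Leaving out 1 array at a time gave 3 to 9. In untreated cells the 9 genotype differences became 4 in the value table, with or without its repeated value, and 16 with array weights, and were 6 to 9 with 1 array left out. With LPS the 14 became 9 in the value table (both forms) and 11 to 14 with 1 array left out. The LPS calls, 24 in wild type and 21 in knockout cells, were 21 to 24 and 19 to 23 with 1 array left out. Correlations of same-numbered arrays ran from -0.535 to 0.563 over 14 pairs, of which 6 were above 0.1, among them all 3 pairs of the genotype comparison with LPS. There the replicate block ended the calls for Vcam1 and Itga4, added Selplg and gave 13 members in place of 14.

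Quantile normalisation and the value table turned LPS rises in wild type cells to -0.30 and -0.33 for Itga4, -0.54 and -0.53 for Cd82 and -0.27 and -0.36 for Cd48, and the Cd82 rise in knockout cells to -0.21 and -0.19; removing the repeated value did not change these value-table figures. Quantile normalisation gave -0.27 for Itgb2 in wild type cells, and the mean over all probes gave 0.36 for Itgam. In the value table, 1 value between 7.35 and 7.48 recurs 924 to 3202 times on each of 5 arrays, and Itgb3, Cd47 and Slamf7 carry it on LPS-treated wild type replicate 3. There the table gave -2.0 for the LPS response of Cd47 in wild type cells and 2.38 for its genotype difference with LPS, and 0.92 and 1.41 for the response difference and genotype difference with LPS of Slamf7. With the repeated value set to missing, Cd47 gave 0.06 and 0.32 and Slamf7 gave -0.60 and -0.11. The table lists 23 of the 30 members. It gave 10 up and 9 down in wild type and 8 up and 7 down in knockout cells. The cause of the other changes was not tested. Not being far above background limits Itga1, Itga2 and Pecam1. Vcam1 in untreated cells and Itgb3 in untreated wild type cells lay in the range of Pecam1, which limits the size of their rises. Over the alternatives the LPS response of Vcam1 ran from 6.92 to 8.03 in wild type and from 7.43 to 8.76 in knockout cells.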

Other observations

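Tspan32 and Cd81 are tetraspanin genes that lie next to each other on chromosome 7 in the RefSeq gene order. Untreated knockout cells had 6.18 ± 0.14 more Tspan32 and 4.29 ± 0.17 more Cd81 signal than wild type cells on the log2 scale, and with LPS the differences were 3.72 ± 0.14 and 4.06 ± 0.18. Cd81 was chosen after its values were seen.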
